A study of Mus musculus with 2 samples.

Results

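Other R2 is a cluster of macrophages in the nephritic mouse kidney whose cells carry the transcripts of patrolling monocytes. All cells with this cluster name in the deposited table of cells were taken, 319 of 7314 cells, of which 188 came from the WT library and 131 from the Vsir-/- library. The study compared WT mice with mice that lack Vsir, the gene of the checkpoint ligand VISTA, in nephrotoxic serum nephritis (NTN), a model in which serum against the glomerulus is given to mice sensitized to sheep IgG. Both groups were C57BL/6 mice, 8 weeks old, and according to the sample labels both were given 200 μg of sheep IgG in Freund's complete adjuvant and, 4 days later, 2 μL of nephrotoxic serum per g of body weight. The methods of the study give a higher dose of this serum. Kidneys were digested with liberase (0.2 mg/mL) for 30 minutes, and transcripts of each cell were counted with the 10x Genomics 3′ method as UMIs, the unique molecular identifiers that mark single RNA molecules. The labels describe the WT library as sorted CD45+ cells and the Vsir-/- library as cells of the kidney without a sort, whereas the methods of the study describe a sort of immune cells for both. Neither gives the number of mice in each library.

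Patrolling monocytes, also called nonclassical monocytes, crawl along the inner wall of blood vessels, take up immune complexes and cell debris, and differ from classical monocytes by low Ly6C and Ccr2 and high CX3CR1. They depend on the nuclear receptor NR4A1 and on signals through CSF1R. In the glomerulus they are known as the monocytes that stay longest in the capillaries and that meet deposited antibodies through the activating Fc receptor FcγRIV.

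Each genotype had 1 library, so no test between genotypes was possible and none was made. The intervals below are 95% intervals that cover counting error only, and a gene is said to be past 2-fold where its level differed at least 2-fold between the libraries. Levels are UMIs of a gene per 1000000 UMIs of the same cells (CPM), and ratios are log2 ratios of Vsir-/- over WT CPM with 0.5 UMIs added. The Other R2 cells held 1281098 UMIs in WT (median 5210 per cell, 1955.5 genes) and 772742 UMIs in Vsir-/- (median 6093 per cell, 2119 genes). The median mitochondrial share was 2.66% and 2.88%. Of the cell barcodes, 5 occurred in both libraries, and 0 of these belonged to an Other R2 cell.

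Several properties of the libraries besides the genotype moved with it, and genotype cannot be told apart from them. The WT cells carried Y-linked transcripts and the Vsir-/- cells did not. Ddx3y, Eif2s3y, Uty and Kdm5d together had 246 UMIs in WT and 0 in Vsir-/-, and Xist, the RNA of the inactive X chromosome, had 0 and 435 UMIs (these 5 genes were chosen after their values were seen). By these transcripts, the 2 libraries came from mice of opposite sex, whereas the methods of the study describe male mice throughout. They also appeared to have been counted with different gene annotations. For 133 genes the WT library used an older symbol and the Vsir-/- library the newer one, with 0 UMIs of the other symbol, and the reverse was seen for 1 gene. In neutrophils, B cells and NK cells, 238 of 4959 genes had ratios of at least 2-fold in the same direction. All 4959 had at least 50 UMIs in Other R2 cells. Such genes are called library-wide below. No count limit was set in neutrophils, B cells or NK cells, whose UMI totals were smaller in Vsir-/-. A gene with 0 UMIs there in both libraries is thus also called library-wide, as higher in Vsir-/-, because of the UMIs added.

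Other R2 cells were 3.44% (interval 2.97 to 3.95%) of the WT library and 7.10% (interval 5.97 to 8.37%) of the Vsir-/- library. Of the cells in the 3 macrophage clusters (R1, M2-like R2 and Other R2), they were 24.7% (interval 21.7 to 28.0%) in WT and 24.4% (interval 20.9 to 28.3%) in Vsir-/- mice. The share of the library thus differed beyond counting error, and the intervals of the share among macrophages overlapped almost completely. The shares were also taken over only the cells that had a UMI of Ptprc, the gene of CD45. They were then 3.55% (interval 3.06 to 4.09%) of the WT library and 9.57% (interval 8.06 to 11.3%) of the Vsir-/- library. Of the cells in the 3 macrophage clusters with a Ptprc UMI, they were 25.5% in WT and 27.5% in Vsir-/-. Shares of a library depend on the sort, which the labels give for WT alone.

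The 6 markers of the label were chosen with earlier results of these data known, and the cells were clustered on their transcripts. The marker levels thus describe the cluster and do not test its name. All 6 were at least 2-fold above the other 2 macrophage clusters in both libraries. Ace, the angiotensin-converting enzyme, had 496 CPM in WT (interval 458 to 536) and 456 CPM in Vsir-/- (interval 409 to 506), against 96.3 and 56.1 CPM in M2-like R2 and 36.0 and 8.12 CPM in R1. The activating receptor Cd300e had 382 CPM in WT and 419 CPM in Vsir-/-, and M2-like R2 and R1 cells had at most 14.4 CPM in either library. Treml4, a receptor of the TREM family, had 375 CPM in WT and 453 CPM in Vsir-/-. Ear2, a ribonuclease, had 540.2 CPM in WT and 563 CPM in Vsir-/-. Adgre4, an adhesion receptor related to F4/80, had 359.8 CPM in WT and 475 CPM in Vsir-/-. Gngt2, a G protein subunit, was the most abundant with 1583 CPM in WT and 2134 CPM in Vsir-/-, but it was also the least exclusive, with 685 and 667 CPM in M2-like R2 cells. Between the genotypes, 0 of the 6 was past 2-fold, where 4.44% of all genes tested were past 2-fold higher in Vsir-/- and 6.45% past 2-fold lower.

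**Figure D1:**
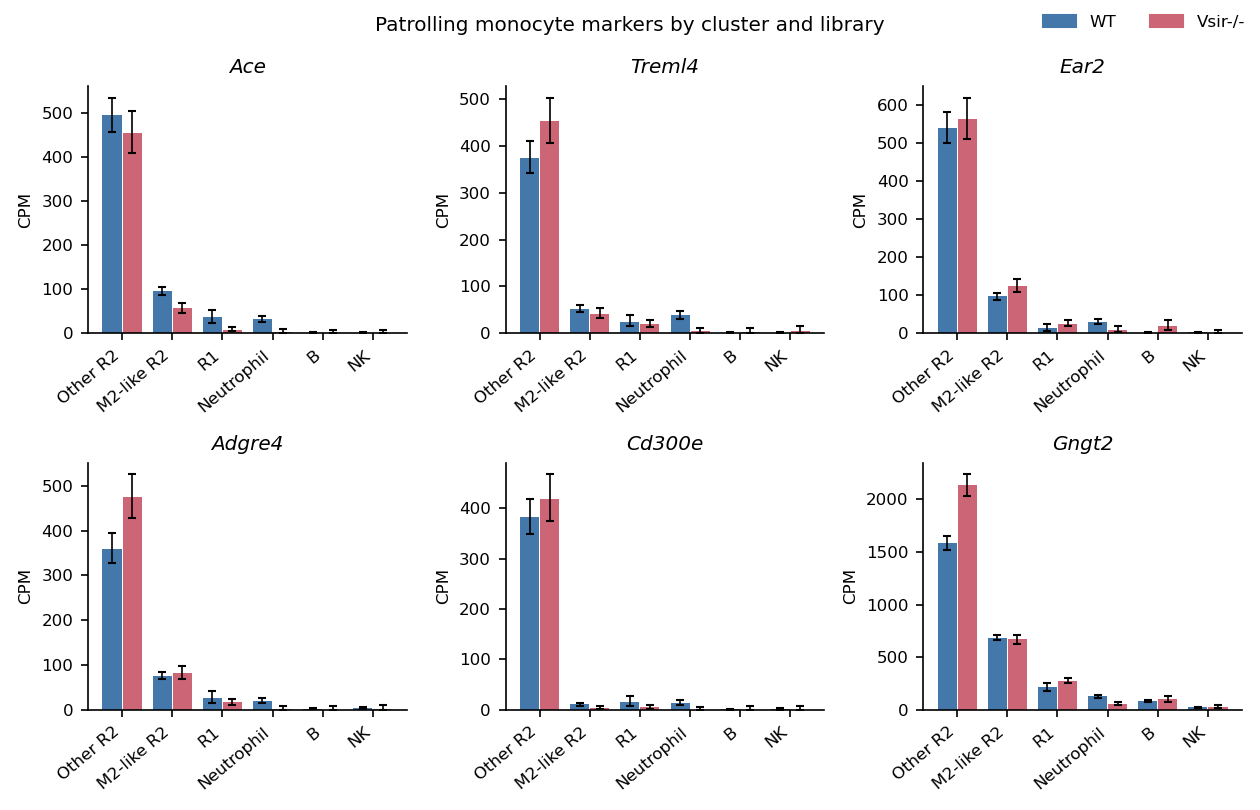
CPM of the 6 markers (vertical axes) in 6 clusters (horizontal axes), WT in blue and Vsir-/- in red, as sums over the cells of a library with 95% Poisson intervals as error bars. In each panel the Other R2 bars are the highest, from 359.8 CPM for Adgre4 to 2134 CPM for Gngt2.

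The markers were found together in single cells. In WT, 155 of 188 cells (82.4%) had UMIs of at least 4 of the 6 markers, and in Vsir-/- 113 of 131 cells did (86.3%), with medians of 5210 and 6093 UMIs per cell. The same held for 18.2% and 13.7% of M2-like R2 cells at 9699 and 10074 UMIs per cell, and for 0 of 969 WT and 0 of 88 Vsir-/- B cells at 3426 and 3596 UMIs. After thinning of every cell to 1000 UMIs, which left out 8 WT and 4 Vsir-/- cells, at least 2 markers were found in 73.3% and 80.3% of Other R2 cells, in 15.9% and 12.6% of M2-like R2 cells, and in 0.211% and 0% of B cells. All 6 markers had a UMI in 84 WT and 63 Vsir-/- cells, and 11 cells of each library had at most 1.

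The 16 genes listed for patrolling monocytes were present in both libraries, and none was past 2-fold (median log2 ratio -0.023, or -0.42 in the smaller set of cells described below), where the shares over all genes tested were 4.44% higher and 6.45% lower. Nr4a1, on which these cells depend, had 922 CPM in WT and 1199.6 CPM in Vsir-/-. Cx3cr1, the fractalkine receptor, had 382 CPM in WT and 439 CPM in Vsir-/-, below the 688 and 783 CPM of R1 cells. Itgal, a chain of the integrin LFA-1, had 916 CPM in WT and 864 CPM in Vsir-/-. Spn, which encodes CD43, had 527 CPM in WT and 509 CPM in Vsir-/-. The transcription factor Cebpb had 2556 CPM in WT and 3475 CPM in Vsir-/-. Of the list, 6 genes were at least 2-fold above both other clusters in both libraries, as were 2.92% of all genes tested, namely Nr4a1, Spn, Itgal, Pglyrp1, the glycolytic enzyme Eno3 and the transcription factor Pou2f2.

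Some genes that define other myeloid cells were low or at 0 in Other R2 cells, and others were abundant. The complement gene C1qa, a marker of resident macrophages, had 3.12 and 25.9 CPM in Other R2 cells and 4570.3 and 5366 CPM in R1 cells. Mertk had 0 and 4 UMIs, and Folr2 and Lyve1 had 0 in both. Of the 12 genes of the resident macrophage list, 2 were also at 0 in R1 cells of WT and 1 in those of Vsir-/-. A 0 alone thus need not set Other R2 apart from R1. Apoe, a lipid carrier and the most abundant gene of the resident macrophage list, had 1009 CPM in WT and 901 CPM in Vsir-/-, against 1033 and 2502 CPM in M2-like R2 and 5665 and 11126 CPM in R1. The list as a whole summed to 1321 and 1342 CPM, against 19998 and 27973 CPM in R1 cells. Adgre1, which encodes F4/80, had 115 CPM in WT and 122 CPM in Vsir-/-, close to the 97.2 and 104 CPM of M2-like R2 cells. Cd72, which the study used to tell R1 from R2 macrophages, had 51.5 and 14.2 CPM against 626 and 555 in R1. Of the classical monocyte genes, Ly6c2 had 220.1 CPM in WT and 91.9 CPM in Vsir-/-, against 2972 and 1673 in M2-like R2. The chemokine receptor Ccr2 had 57.8 and 9.06 CPM, against 912 and 931. Plac8, of the same list, had 2495 CPM in WT and 2917 CPM in Vsir-/-. Of the 8 dendritic cell genes, Cd209a and Clec9a were at 0 UMIs in both libraries, and the list summed to 115 and 18.1 CPM, of which the lymphoid homing receptor Ccr7 gave 109 and 1.29.

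Beyond the markers, 145 of 4959 genes (2.92%) were at least 2-fold above both R1 and M2-like R2 in both libraries, and 29 (0.585%) at least 2-fold below both. The cells were clustered on their transcripts, so this is a description and not a test. Over 4857 genes, the profile of Other R2 was closest to that of M2-like R2 (Pearson's r of log2 CPM 0.89 in WT and 0.88 in Vsir-/-), then R1 (0.82 and 0.79), where clusters of a library share its preparation and genes are not independent replicates. Between the libraries, Other R2 cells of WT and Vsir-/- correlated less over the same genes (r = 0.61). Over the 4621 genes that were not library-wide and had a UMI in both libraries, r was 0.86. That set leaves out genes that differed between the libraries, so its value is not comparable with the others. Among the 20 genes with the widest margin were 2 receptors for formyl peptides of bacteria and mitochondria, Fpr1 (38.2 CPM in WT, 69.9 in Vsir-/-) and Fpr2 (95.2 and 221 CPM, past 2-fold between genotypes, but not in the smaller set of cells described below). S1pr5, a receptor for sphingosine 1-phosphate that lets these cells leave the bone marrow, had 98.4 CPM in WT and 89.3 CPM in Vsir-/-, against at most 19.8 CPM in the other 2 clusters. Pparg, a nuclear receptor for lipids, had 166 CPM in WT and 82.8 CPM in Vsir-/-. The MAP kinase phosphatases Dusp5 (230.3 and 221 CPM) and Dusp16 (409 and 373 CPM), the survival gene Bcl2a1d (449 and 479 CPM), the CD300 family receptor Cd300ld (349.7 and 445 CPM) and the antibacterial protein Pglyrp1 (666 and 429.6 CPM) belonged to the same group. Others of the 20 were Cyth3, Eno3, Gk, Rap1gap2, Slc12a2 and Tgm2, besides Ace, Adgre4, Cd300e, Ear2 and Treml4. Of the 10 genes with the widest margin below both clusters, 3 were Fc receptors, namely Fcgr1, Fcgr2b and Fcgr3, and the others included Bst2, Evi2a, H2-DMb1, Ly86, Tmem176b and Wfdc17.

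Fc receptors thus differed within the family. Fcgr4, the activating receptor for IgG2 antibodies, had 383 CPM in WT and 489 CPM in Vsir-/-, against 59.2 and 70.4 in M2-like R2 and 367 and 505 in R1, so it stood above M2-like R2 and near R1. By contrast, the high-affinity receptor Fcgr1 had 67.1 and 29.8 CPM, against 298 and 188 in M2-like R2. Fcgr3 had 82.0 and 68.6 CPM, and the inhibitory receptor Fcgr2b had 53.9 and 94.5 CPM. Fcer1g, the signaling chain of the activating receptors, had 3447 CPM in WT and 4405 CPM in Vsir-/-. Between genotypes, Fcgr1 was past 2-fold lower in Vsir-/- (log2 ratio -1.15, interval -1.91 to -0.50) and the other 5 of the 6 genes listed were not (over all genes, 4.44% higher and 6.45% lower), with medians of 0.082 in all cells and -0.081 in the smaller set described below.

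The most abundant transcripts outside ribosomal and mitochondrial genes were the nuclear RNA Malat1 (27313 CPM in WT and 24339 CPM in Vsir-/-), Tmsb4x, Actb, Lyz2, Fau, Tpt1, Gm42418, Fth1, Cst3 and B2m. Lyz2, the lysozyme of myeloid cells, had 6895 CPM in WT and 7482 CPM in Vsir-/-. Gm42418 was library-wide, with 2946 CPM in WT and 10443 CPM in Vsir-/-.

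The WT cells also held transcripts of B cells. Cd79a, Cd79b and Ms4a1, which encode 2 chains of the B cell receptor complex and CD20, had at least 2 UMIs together in 50 of 188 WT cells (26.6%, interval 20.4 to 33.5%) and in 1 of 131 Vsir-/- cells. The same held in WT for 36 of 116 R1 cells, 98 of 456 M2-like R2 cells and 22 of 524 neutrophils. In Vsir-/- it held for 15 of 237, 2 of 168 and 0 of 158. Of the WT Other R2 cells, 44 had at least 10 such UMIs and 1 had 97. The cells with B cell transcripts were deeper, with a median of 9552 UMIs against 4462 in the other WT cells, and 40 of the 50 carried at least 4 of the 6 patrolling monocyte markers. Their Cd79a level was 1385 CPM, against 2942 CPM in the WT B cells. Transcripts of T cells (at least 5 UMIs of 6 genes) were found in 14 WT cells, of NK cells (at least 5 of Ncr1, Klrb1c and Prf1) in 4, of neutrophils (at least 20 of S100a8 and S100a9) in 3, and of the endothelium (at least 5 of 7 genes) in 1. In Vsir-/- the respective numbers were 0, 0, 0 and 6 cells. The summed B cell list was 4276 CPM in WT and 90.6 in Vsir-/-, and Igkc was its most abundant gene in WT (2212 CPM). The T cell list summed to 320.0 and 6.47 CPM, the NK cell list to 412 and 11.6 CPM, and the neutrophil list to 3954 and 232 CPM.

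The Vsir-/- cells held transcripts of kidney tubules. Each of the 131 cells had at least 2 UMIs of the 20 tubule genes (median 12, highest 73), and so did each of the 158 neutrophils (median 10) and 67 NK cells (median 12) of that library. In WT, 43 of 188 cells had such a UMI and none more than 5. The list summed to 51.5 CPM in WT and 2311 CPM in Vsir-/-, where Gpx3 was the most abundant gene (509 CPM). In WT, 15 of the 20 genes were at 0 UMIs and Ass1 gave 44.5 of the 51.5 CPM. Of the 20 genes, 13 had 0 UMIs in the whole WT library, and in the whole matrix 1011 symbols had at least 100 UMIs in Vsir-/- and 0 in WT. Whether these symbols could be counted in the WT library was not tested, and a 0 there is not read as a measured low level. The endothelial list summed to 39.0 and 572 CPM. Of the podocyte genes, Podxl, which the endothelium also expresses, had 0 UMIs in WT and 42 in Vsir-/-, and Nphs1 had 0 in both. The erythroid list had 0 and 5 UMIs and the platelet list 4 and 4.

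**Figure D2:**
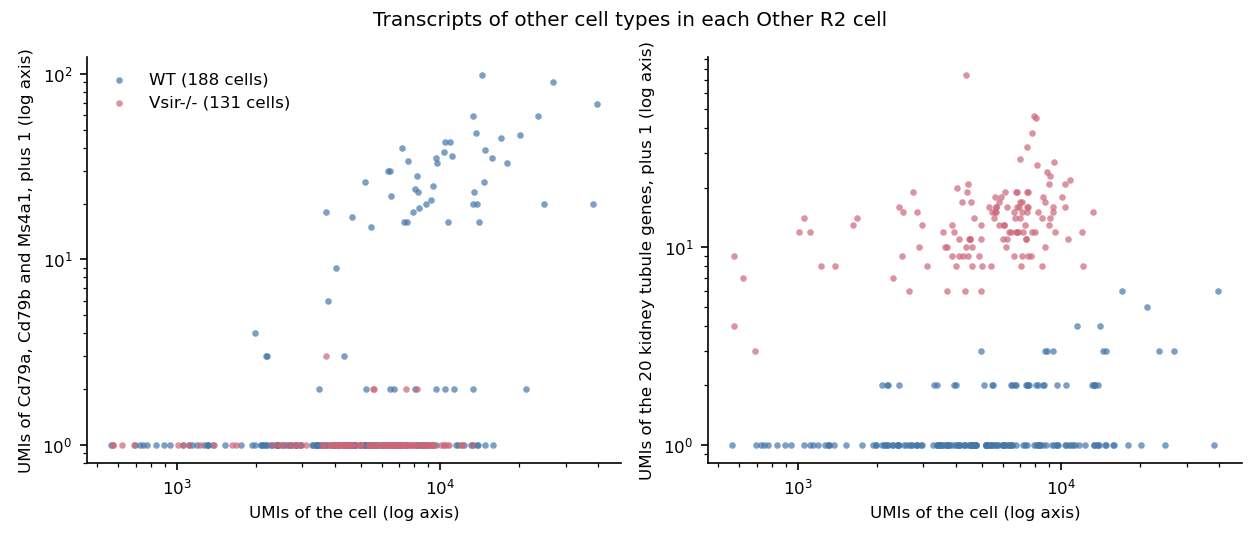
Each point is an Other R2 cell, WT in blue and Vsir-/- in red, by its UMIs (horizontal log axis) and by its UMIs of 3 B cell genes (left) or of 20 kidney tubule genes (right), both plus 1 on log axes. On the left, 44 WT cells and 0 Vsir-/- cells lie at 10 or more B cell UMIs, and on the right all 131 Vsir-/- cells have at least 2 tubule UMIs.

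To set these cells aside, the comparison of genotypes was repeated in cells low in other lineages' transcripts, meaning those below all 5 limits given above. This set was chosen with the values in view. It kept 127 WT cells (576008 UMIs) and 124 Vsir-/- cells (700913 UMIs). Tubule transcripts stayed, since every Vsir-/- cell had them, and 0 of the 7 endothelial genes then reached 50 UMIs. The 6 patrolling monocyte markers were then slightly lower in Vsir-/- than in WT (median log2 ratio -0.22, against 0.20 in all cells), and their direction thus depended on the cells kept.

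The targeted gene was checked first. Vsir had 127 UMIs in WT (99.1 CPM, interval 82.6 to 118) and 0 in Vsir-/-, where 3 counts of the total would be 3.88 CPM, so that its level was at least 25.5-fold lower. The 0 did not hold for every cluster of that library. In its M2-like R2 cells, all 13 genes of the list for contact with T cells, Vsir among them, were detected. In WT mice, Vsir was lower in Other R2 than in M2-like R2 (275 CPM) and R1 cells (235 CPM). Selplg, which encodes PSGL-1, a binding partner of VISTA, had 291 CPM in WT and 162 CPM in Vsir-/-.

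Of 4959 genes with at least 50 UMIs, 220 (4.44%) were at least 2-fold higher in Vsir-/- and 320 (6.45%) at least 2-fold higher in WT, with a median log2 ratio of -0.046 over all genes. In cells low in other lineages' transcripts, 166 of 3537 genes (4.69%) were higher and 132 (3.73%) were lower in Vsir-/-. Of the 220 genes higher in all cells, 119 were library-wide, and 47 were past 2-fold in both sets of cells and not library-wide. The 119 can include genes with few or no UMIs in neutrophils, B cells and NK cells. Of the 320 lower genes, 74 were library-wide, 117 reached 50 UMIs in the smaller set, and 50 were past 2-fold in both sets and not library-wide.

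**Figure D3:**
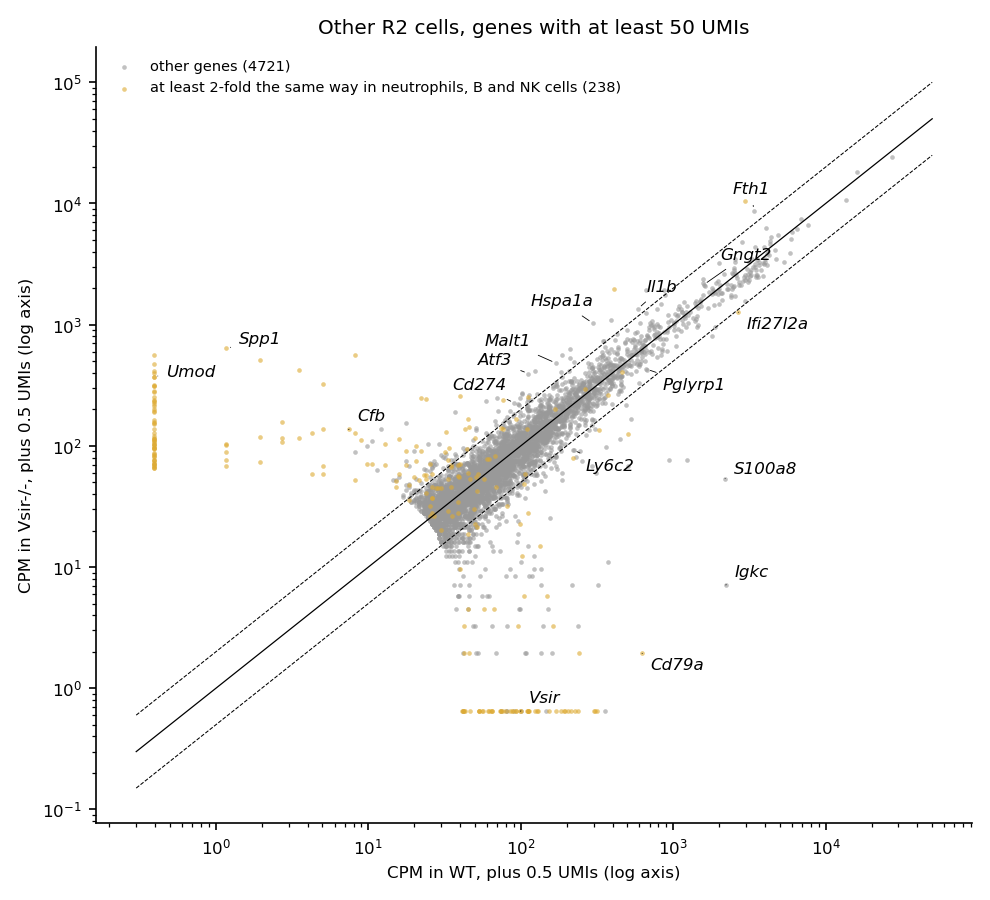
Each point is a gene with at least 50 UMIs in Other R2 cells, by its CPM in WT (horizontal log axis) and in Vsir-/- (vertical log axis), with 0.5 UMIs added. The solid line marks equal levels and the dashed lines 2-fold differences. Library-wide genes (238, gold) lie mostly along the edges, where a symbol has 0 UMIs in 1 library, and B cell and neutrophil genes such as Igkc, Cd79a and S100a8 lie far to the right.

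The largest ratios were mostly of this kind. Of the 12 genes with the largest ratio of Vsir-/- over WT, 10 were library-wide (Atp6v0c, Cd63, Cfb, Gm42031, Gng10, Nme2, Pik3ap1, Plpp1, Rnasek and Tomm6), and the others were Atp1b1 and Upp1. Upp1, uridine phosphorylase, had 11.7 CPM in WT and 136 CPM in Vsir-/- and did not differ in this way in neutrophils (log2 ratio -0.12). Cfb, complement factor B, had 7.03 CPM in WT and 136 CPM in Vsir-/-, and in neutrophils 1.61 and 14.2 CPM. Pik3ap1, an adaptor of PI3 kinase, had 23.4 CPM in WT and 245 CPM in Vsir-/-, and in neutrophils 6.45 and 57.9 CPM. The 12 genes with the smallest ratio were the neutrophil genes Camp, S100a8 and S100a9, the B cell genes Cd79b, Ebf1, H2-Ob and Igkc, the granzyme Gzma, and Fchsd2, Gm8369, Ptp4a1 and Rhoh, of which Gm8369 and Ptp4a1 were library-wide. In cells low in other lineages' transcripts, Igkc had 38.2 and 5.71 CPM, S100a8 116 and 57.1 CPM and Ebf1 1.74 and 1.43 CPM in WT and Vsir-/-.

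A further group was limited to genes at least 2-fold above neutrophils and B cells in the library where the gene was higher. Of the 20 such genes with the largest ratio, 12 were also past 2-fold in cells low in other lineages' transcripts. Of the 20 with the smallest ratio, 14 were past 2-fold in those cells and only 6 in all cells. Those cells are part of the cells whose ratios ranked the genes, so these counts are no independent support. Malt1, a protease that passes signals to NF-κB, had 169 CPM in WT (interval 148 to 193) and 481 CPM in Vsir-/- (interval 434 to 533), a log2 ratio of 1.51 (interval 1.26 to 1.76). Vamp5, a vesicle protein induced by interferons, had 36.7 CPM in WT and 190.2 CPM in Vsir-/-. Socs3, an inhibitor of cytokine signaling, had 101 CPM in WT and 269 CPM in Vsir-/-. Blvrb, biliverdin reductase B, had 113 CPM in WT and 264 CPM in Vsir-/-. Cfb, Gm42031, Lpl and Pik3ap1 of this group were library-wide, and the group also held Atf3, Cd274, Cd302, Gm6377, Hspa1a, Hspa1b, Lacc1, Pot1b, Rap2a, Rcan1 and Smpdl3b, with log2 ratios from 1.10 to 1.82.

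On the lower side, the stress-response gene Ddit4 had 96.0 CPM in WT and 23.3 CPM in Vsir-/-, a log2 ratio of -2.01 (interval -2.85 to -1.32). Hpgd, the enzyme that inactivates prostaglandins, had 187 CPM in WT and 59.5 CPM in Vsir-/-, with 319 and 65.6 CPM in the smaller set. Pparg had 166 CPM in WT (interval 145 to 190.2) and 82.8 CPM in Vsir-/- (interval 63.8 to 106), and 226 and 87.0 CPM in the smaller set. Dpep2, a dipeptidase that acts on leukotrienes, had 101 CPM in WT and 49.2 CPM in Vsir-/-. The transcription factor Nfkb1 had 433 CPM in WT and 269 CPM in Vsir-/-, short of 2-fold. Gstp1 was library-wide (111 CPM in WT and 27.2 CPM in Vsir-/-), and Ahnak, B4galt5, Camkk2, Eps8, Fam126a, Fcgr1, L1cam, Ldlrad3, Nabp1, Noct, Pcnx, Polr2l, Sgk3 and Slc39a1 completed the 20, with log2 ratios from -1.21 to -0.67.

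Heat shock and immediate early genes, which also respond to the digestion of tissue, had higher levels in Vsir-/- cells for several members. All 14 genes of this list reached 50 UMIs, 4 were at least 2-fold higher in Vsir-/- and 0 lower (against 4.44% and 6.45% of all genes tested), with a median log2 ratio of 0.48, against -0.046 over all genes. The chaperone Hspa1a had 296 CPM in WT (interval 267 to 327) and 1030.1 CPM in Vsir-/- (interval 959.8 to 1104), and Hspa1b had 391 CPM in WT and 1097 CPM in Vsir-/-. These 2 genes are near-identical copies, so reads may be split between them. Atf3, a transcription factor of the stress response, had 112 CPM in WT and 395 CPM in Vsir-/-. Dusp1, a phosphatase that limits MAP kinases, had 865 CPM in WT and 1941 CPM in Vsir-/-. Fos had 785 CPM in WT and 1348 CPM in Vsir-/- and Zfp36, which destabilizes cytokine mRNA, had 659.6 CPM in WT and 1249 CPM in Vsir-/-, both short of 2-fold, and Hspa8, the constitutive chaperone, had 2262 and 2162 CPM. In the smaller set of cells 4 of 14 were past 2-fold higher and 0 lower (against 4.69% and 3.73%), and the median was 0.63, with Dusp1 just short of 2-fold (log2 ratio 0.97). In NK cells, Hspa1a had 98.4 and 446 CPM and Atf3 15.4 and 116 CPM, and the list summed to 5798 and 9896 CPM, beside 9212 and 13267 CPM in Other R2 cells. It was lower in Vsir-/- in neutrophils (9830.4 and 6566 CPM) and B cells (7159.7 and 6885 CPM). The part of the digestion in these values was not tested.

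Of 15 cytokine and chemokine genes, 10 reached 50 UMIs, of which 4 were past 2-fold higher and 1 lower in Vsir-/- (against 4.44% and 6.45% of all genes tested; median log2 ratio 0.0069). Of the 9 that did so in the smaller set, 1 was past 2-fold higher and 0 lower, with a median of 0.020. Of all genes tested in that set, 4.69% were past 2-fold higher and 3.73% lower. Il1b had 588 CPM in WT (interval 547 to 631) and 1355 CPM in Vsir-/- (interval 1274 to 1439.5), a log2 ratio of 1.20 (interval 1.07 to 1.34). Its levels in the smaller set were 899 and 1442 CPM, a log2 ratio of 0.68 (interval 0.53 to 0.84), still higher but no longer past 2-fold. Cxcl2, which attracts neutrophils, had 210.0 CPM in WT and 633 CPM in Vsir-/-, and 212 and 661 CPM in the smaller set. Il1rn, the antagonist of the interleukin 1 receptor, had 10.9 CPM in WT and 62.1 CPM in Vsir-/-, and 6.94 and 59.9 CPM in the smaller set, where its 4 and 42 UMIs were below the count filter. Il10, an inhibitory cytokine, had 18.0 CPM in WT and 67.3 CPM in Vsir-/-, and its UMIs came from 9 WT and 18 Vsir-/- cells. Its log2 ratio was 1.89 in all cells, 0.88 in the smaller set, and -0.20 in the 49 WT and 90 Vsir-/- cells that had no UMI of T cell or B cell genes, Retnlg or Ncr1. Ccl3 and Ccl4 were abundant and close between genotypes, with 425 and 380.5 CPM and 851 and 764 CPM. Tnf had 74.9 CPM in WT and 55.6 CPM in Vsir-/-. Ccl5, a product of NK and T cells, was past 2-fold lower in all cells (504 CPM in WT and 67.3 CPM in Vsir-/-) but had 85.1 and 72.8 CPM in the smaller set. Fewer than 50 UMIs were found for Ccl2 (9 in WT, 38 in Vsir-/-), Cxcl16, Il18, Il6 (17 and 0) and Il1a (0 in both).

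Most genes induced by type I interferon had lower levels in Vsir-/- cells, although few were past 2-fold. Of 13 genes, 10 reached 50 UMIs, 2 had a ratio above 0, 1 was past 2-fold higher and 1 lower (against 4.44% and 6.45% of all genes tested), and the median log2 ratio was -0.59, against -0.046 over all genes. Ifi27l2a, which was library-wide, had 2673 CPM in WT (interval 2584 to 2764) and 1266 CPM in Vsir-/- (interval 1188 to 1347), past 2-fold lower. Rsad2, which encodes viperin, had 48.4 CPM in WT and 111 CPM in Vsir-/-, past 2-fold higher. In the smaller set, 4 of 7 genes were past 2-fold lower and 0 higher (against 3.73% lower and 4.69% higher of all genes tested there), with a median of -1.17, and Rsad2 had 36.5 and 39.9 CPM. Irf7, the transcription factor that amplifies this response, had 263 CPM in WT and 148 CPM in Vsir-/-, and 302 and 134 CPM in the smaller set. Oasl2 had 123 CPM in WT and 72.5 CPM in Vsir-/-, and Isg15 had 117 CPM in WT and 86.7 CPM in Vsir-/-. Ifitm3, the most abundant of the list, had 3911 CPM in WT and 4384 CPM in Vsir-/-. Neutrophils showed the same direction for Irf7 (log2 ratio -1.13) and Ifi27l2a (-1.25). The summed list was lower in Vsir-/- in neutrophils (11736 and 6553 CPM), M2-like R2 (13972 and 9374 CPM) and NK cells (532 and 318 CPM). It was higher in Vsir-/- in R1 (5498 and 5964 CPM) and B cells (1765 and 2081 CPM).

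The list for interferon γ went the other way for its guanylate-binding proteins, which attack intracellular pathogens. Of 16 genes, 11 reached 50 UMIs, 5 were past 2-fold higher in Vsir-/- and 0 lower (against 4.44% and 6.45% of all genes tested, with a median log2 ratio of 0.27). Gbp2 had 81.2 CPM in WT and 172 CPM in Vsir-/-, Gbp3 20.3 and 53.1 CPM, Gbp5 22.6 and 63.4 CPM, and Gbp7 32.8 and 67.3 CPM. Iigp1, which was library-wide, had 1 UMI in WT and 59 in Vsir-/-, but only 15 Vsir-/- cells held them, and the smaller set had 1 and 16 UMIs. The transcription factor Irf1 (137 and 158 CPM) and the receptor chains Ifngr1 (482 and 476 CPM) and Ifngr2 (110.1 and 118 CPM) were close between the libraries. In the smaller set 1 of 8 genes was past 2-fold higher and 0 lower (against 4.69% and 3.73% of all genes tested there), Gbp5 with 22.6 and 57.1 CPM, and the median was -0.14. Neutrophils had lower Gbp2 and Gbp5 in Vsir-/- (log2 ratios -1.38 and -1.29), and the difference between the clusters was not tested.

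The result for MHC class II, which presents peptides to CD4+ T cells, turned on the cells kept. In all cells, 0 of 7 genes were past 2-fold higher in Vsir-/-, 1 (the transactivator Ciita, 50.7 and 20.7 CPM) was lower (against 4.44% and 6.45% of all genes tested), and the median log2 ratio was -0.33. H2-Ab1 had 897 CPM in WT and 756 CPM in Vsir-/-, and Cd74, the invariant chain, had 4150.3 CPM in WT and 3801 CPM in Vsir-/-. B cells express these genes strongly, with 16259 CPM of Cd74 in WT, and the 50 WT cells with B cell transcripts had 7413 CPM. In the smaller set, all 6 genes that reached 50 UMIs were higher in Vsir-/-, 3 of them past 2-fold (against 4.69% of all genes tested there), with a median of 1.01. There Cd74 had 1564 and 3734 CPM (log2 ratio 1.25, interval 1.15 to 1.37), H2-Eb1 288 and 594 CPM (log2 ratio 1.04), H2-Aa 477 and 917 CPM and H2-Ab1 359 and 706 CPM. Ciita had 10.4 and 12.8 CPM, from 6 and 9 UMIs. Neutrophils, which make little MHC class II, had 869.8 and 404 CPM of Cd74 in WT and Vsir-/-. The levels of Other R2 cells stayed far below those of R1 cells, which had 11513 and 10596 CPM of H2-Ab1.

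Of MHC class I, none of 10 genes was past 2-fold in all cells and none of 9 in the smaller set (over all genes, 4.44% higher and 6.45% lower in all cells and 4.69% and 3.73% in the smaller set), and the medians were 0.27 and 0.13. B2m had 4363 CPM in WT and 5284 CPM in Vsir-/-, H2-K1 3148 and 3289.6 CPM, and Psmb8, a subunit of the immunoproteasome, had the largest ratio (496 and 756 CPM).

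Among 13 genes for contact with T cells, the ligand Cd274, which encodes PD-L1, was past 2-fold higher in Vsir-/- cells, with 90.5 CPM in WT (interval 74.8 to 109) and 225 CPM in Vsir-/- (interval 193 to 261) and a log2 ratio of 1.31 (interval 0.97 to 1.67). It had 119.8 and 228 CPM in the smaller set and fell short of 2-fold. Cd274 was also higher in Other R2 than in M2-like R2 (23.2 and 45.4 CPM) and R1 cells (24.5 and 17.5 CPM). The costimulatory ligand Cd86 had 98.4 CPM in WT and 189 CPM in Vsir-/-. Cd47 and its receptor Sirpa were close, with 665 and 612 CPM and 281 and 326 CPM. Cd80, Tnfsf9, Cd40, Pdcd1lg2 and Icosl stayed below 50 UMIs. Of the 8 that reached it, 1 was past 2-fold higher (Cd274) and 1 lower (Vsir), beside 4.44% higher and 6.45% lower over all genes, with a median of -0.0058, or -0.32 in the smaller set. There 0 of 7 genes were past 2-fold higher and 2 lower, against 4.69% and 3.73% of all genes tested in that set. The lower genes were Vsir and Selplg (log2 ratio of Selplg -1.04, interval -1.40 to -0.70).

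**Figure D4:**
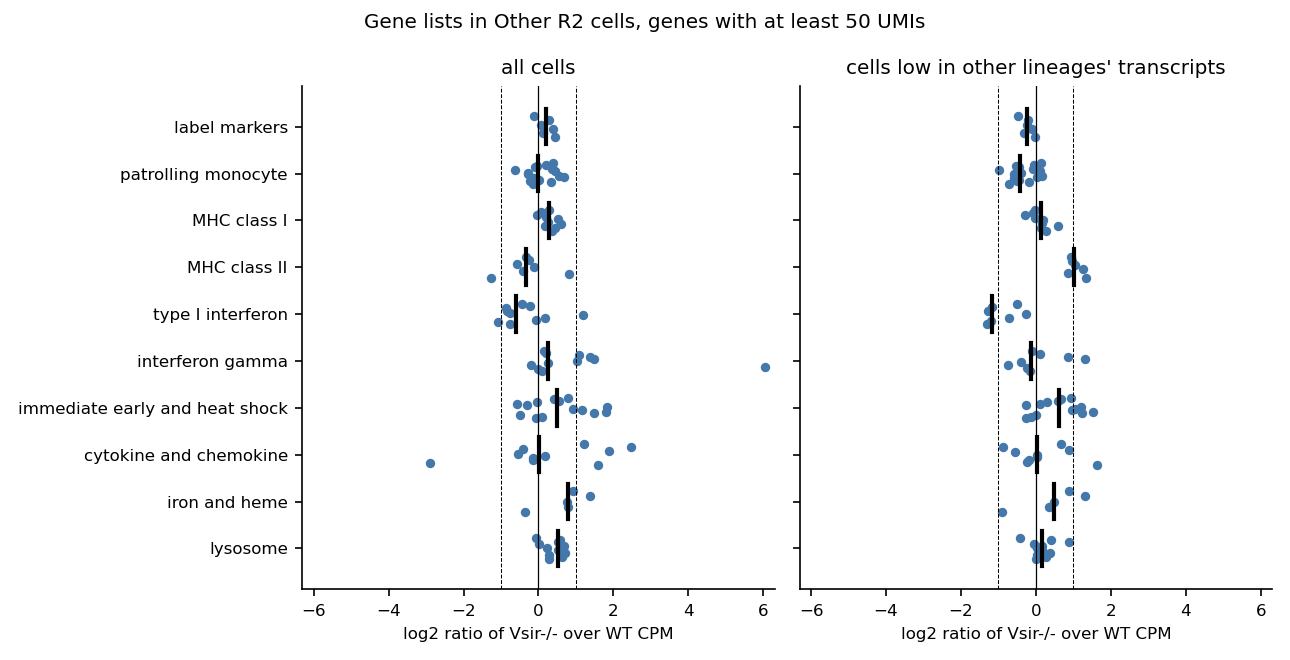
Each point is a gene of a list, by its log2 ratio of Vsir-/- over WT CPM (horizontal axis), in all Other R2 cells (left) and in cells low in other lineages' transcripts (right); thick lines are medians and dashed lines mark 2-fold. The MHC class II median moved from -0.33 to 1.01, and that of type I interferon from -0.59 to -1.17.

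Ferritin was among the abundant transcripts that differed. Fth1, the heavy chain of ferritin, had 3374 CPM in WT (interval 3275 to 3477) and 8713 CPM in Vsir-/- (interval 8506 to 8924), a log2 ratio of 1.37 (interval 1.31 to 1.42), and 3698 and 9102 CPM in the smaller set. The light chain Ftl1 had 2825 CPM in WT and 4804 CPM in Vsir-/-, the heme-degrading enzyme Hmox1 169 and 321 CPM, and the metal transporter Slc11a1 152 and 261 CPM, each short of 2-fold. Hfe, a regulator of iron uptake, had 274 CPM in WT and 214 CPM in Vsir-/-. Of 8 genes, 5 reached 50 UMIs, 1 was past 2-fold higher and 0 lower (all genes, 4.44% higher and 6.45% lower), and the median was 0.78, or 0.48 in the smaller set. The scavenger receptor for hemoglobin, Cd163, had 0 UMIs. Fth1 was also higher in Vsir-/- outside macrophages, though short of 2-fold. It had 6273 and 8400 CPM in neutrophils, 2220 and 3208 CPM in B cells, and 981 and 1472 CPM in NK cells.

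Of 8 genes for Toll-like receptors and their partners, 5 reached 50 UMIs and 2 were past 2-fold higher in all cells and 1 of 5 in the smaller set (against 4.44% and 4.69% of all genes tested), with median log2 ratios of -0.12 and -0.28. Cd14, the co-receptor for lipopolysaccharide, had 101 CPM in WT (interval 84.8 to 120.5) and 272 CPM in Vsir-/- (interval 236 to 311), and 108 and 295 CPM in the smaller set. Tlr2 had 84.3 CPM in WT and 194 CPM in Vsir-/-, and 127 and 197 CPM in the smaller set, short of 2-fold. Tlr7 (93.7 and 75.1 CPM), Tlr13 (83.5 and 76.4 CPM) and the adaptor Myd88 (90.5 and 77.6 CPM) had ratios below 0.

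Of the complement genes, 4 reached 50 UMIs, and 1, Cfb, was past 2-fold higher, where 4.44% of all genes were (median log2 ratio 0.79, or 0.55 in the smaller set). C3, the central component, had 110.1 CPM in WT and 206 CPM in Vsir-/-. Of 8 lipid-associated macrophage genes, 3 were past 2-fold higher and 0 lower (against 4.44% and 6.45% of all genes tested), with a median log2 ratio of 0.72, and in the smaller set 2 of 8 were (against 4.69% and 3.73% of all genes tested there), with a median of 0.33. The genes past 2-fold in all cells were Spp1, which encodes osteopontin (0.781 and 637 CPM), Cd63 and the lipoprotein lipase Lpl (111 and 251 CPM), all library-wide, and neutrophils of the Vsir-/- library had 798 CPM of Spp1. The receptors that mark such macrophages were nearly absent, with 12 and 3 UMIs of Trem2 and 0 of Gpnmb. In the coagulation and matrix list, 2 of 5 genes were past 2-fold higher in all cells and 2 of 5 in the smaller set, against 4.44% and 4.69% of all genes tested, and the medians were 0.80 and 0.29. In all cells these were the membrane protease Mmp14 (10.1 and 110.0 CPM, with a log2 ratio in neutrophils of 2.21) and the growth factor chain Pdgfb (19.5 and 90.6 CPM). Factor X, F10, had 80.4 CPM in WT and 139.8 CPM in Vsir-/-, against 7.20 and 2.50 in R1.

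None of 11 lysosomal genes was past 2-fold, beside 4.44% higher and 6.45% lower over all genes, and the median log2 ratio was 0.51 in all cells and 0.15 in the smaller set. Ctsb, a cathepsin, had 1450.3 CPM in WT and 1378 CPM in Vsir-/-, and Cst3, the cathepsin inhibitor cystatin C, had 4067 CPM in WT and 6250.5 CPM in Vsir-/-.

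Transcripts of the classical monocyte list summed to 3699 and 4335 CPM, most of them Plac8, and between genotypes some genes were lower and others higher in Vsir-/- cells. Of 11 genes, 8 reached 50 UMIs, 2 were past 2-fold higher and 4 lower (against 4.44% and 6.45% of all genes tested), with a median log2 ratio of -0.51. Ly6c2 had a log2 ratio of -1.25 (interval -1.66 to -0.88), and 158 and 69.9 CPM in the smaller set. Chil3, a chitinase-like protein, had 107 CPM in WT and 36.2 CPM in Vsir-/-. Hp, haptoglobin, had 354 CPM in WT and 736 CPM in Vsir-/- and fibronectin, Fn1, had 19 and 40 UMIs. The direction for Fn1 turned on the cells kept, with 19 and 9 UMIs (log2 ratio -0.29) in cells with at least 2 of the 6 markers and 17 and 9 UMIs (log2 ratio -0.13) in those with a mitochondrial share up to 5%. Of this list in the smaller set, 0 of 5 genes with 50 UMIs were past 2-fold higher and 2 lower (against 4.69% and 3.73% of all genes tested there), with a median of 0.037. In cells with no UMI of T cell or B cell genes, Retnlg or Ncr1, the ratios of Ly6c2 (1.15), Chil3 (1.01) and Ccr2 (0.49) were above 0, from at most 6 UMIs of each in WT. Of the resident macrophage list, 5 of 12 reached 50 UMIs, with 1 higher (Cd81, 42.9 and 137 CPM, library-wide) and 1 lower (Cd72), beside 4.44% higher and 6.45% lower over all genes. In the smaller set Cd72 had 7 and 10 UMIs, a log2 ratio of 0.20, and was no longer lower.

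Of the 11 receptors for homing and adhesion, 10 reached 50 UMIs, with 0 of 10 genes past 2-fold higher and 1 lower (all genes, 4.44% higher and 6.45% lower). The lower one was S1pr1 (37.5 and 14.2 CPM), a receptor that B and T cells use to leave tissues, which had 3.47 and 1.43 CPM in the smaller set. The integrin chains Itga4 (669.7 and 810.1 CPM) and Itgb2 (648 and 753 CPM) were abundant, and the chemokine receptor Cxcr4 had 351 CPM in WT and 247 CPM in Vsir-/-. Of 12 CD300 and TREM family genes, 8 reached 50 UMIs and none was past 2-fold, beside 4.44% higher and 6.45% lower over all genes (median 0.29, but -0.035 in the smaller set, with 2 of 8 ratios above 0), Cd300a with 372 CPM in WT and 415 CPM in Vsir-/- and Cd300c2 with 499 CPM in WT and 600.5 CPM in Vsir-/-.

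Transcription factors and growth factor receptors of monocytes were present in both libraries. Klf4, which patrolling monocytes need, had 614 CPM in WT and 813 CPM in Vsir-/-, and Spi1, which encodes PU.1, had 745 CPM in WT and 959 CPM in Vsir-/-. Of 8 factors listed, 1 was past 2-fold higher and 0 lower (median 0.24), beside 4.44% higher and 6.45% lower over all genes, whereas in the smaller set 0 of 6 was past 2-fold (all genes, 4.69% and 3.73%; median 0.026). Irf8 had 265 CPM in WT and 274 CPM in Vsir-/-. Csf1r, the receptor for their survival factor, had 719 CPM in WT (interval 673 to 767) and 999 CPM in Vsir-/- (interval 929.8 to 1072), and 1035 and 1036 CPM in the smaller set. None of the 6 receptors was past 2-fold, beside the same shares over all genes (median 0.16, but -0.14 in the smaller set), Csf2ra, a chain of the GM-CSF receptor, with 187 CPM in WT and 321 CPM in Vsir-/-.

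Beside the other 2 macrophage clusters, some of these differences were shared and some were not, and no difference between clusters was tested. Hspa1a was higher in Vsir-/- in M2-like R2 (log2 ratio 1.23) and R1 (0.68), and Fth1 likewise (1.20 and 0.74). Il1b had 673 and 559.9 CPM in M2-like R2 and 728 and 431 CPM in R1, so that among the 3 clusters its ratio was above 0 in Other R2. Cd14 had a log2 ratio of 0.19 in M2-like R2 and -0.69 in R1. Pglyrp1 had ratios below 0 in each, with log2 values of -0.63 in Other R2, -1.65 in M2-like R2 and -3.59 in R1. H2-Ab1 had a log2 ratio of 2.49 in M2-like R2, or 2.48 in its cells low in other lineages' transcripts, against 0.97 in those of Other R2. The 10 genes whose ratio stood most above that of M2-like R2 were Ets1, Fam105a, Fam96a, Fxyd2, G0s2, Gpx3, Ldhb, Rsad2, Spp1 and Upp1, and those that stood most below it included Cd2, Gzma, H2-Ab1, H2-DMb2, H2-Eb1, Ifi30, Ly6d, Satb1 and Trbc2. Of these genes, Fam105a, Fam96a, Fxyd2, Gpx3, Ifi30, Ldhb, Ly6d, Spp1 and Trbc2 were library-wide. Fam105a and Fam96a are older symbols of genes that the annotations named differently, and with the UMIs of the newer symbols added their log2 ratios were -0.068 and 0.0071.

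**Figure D5:**
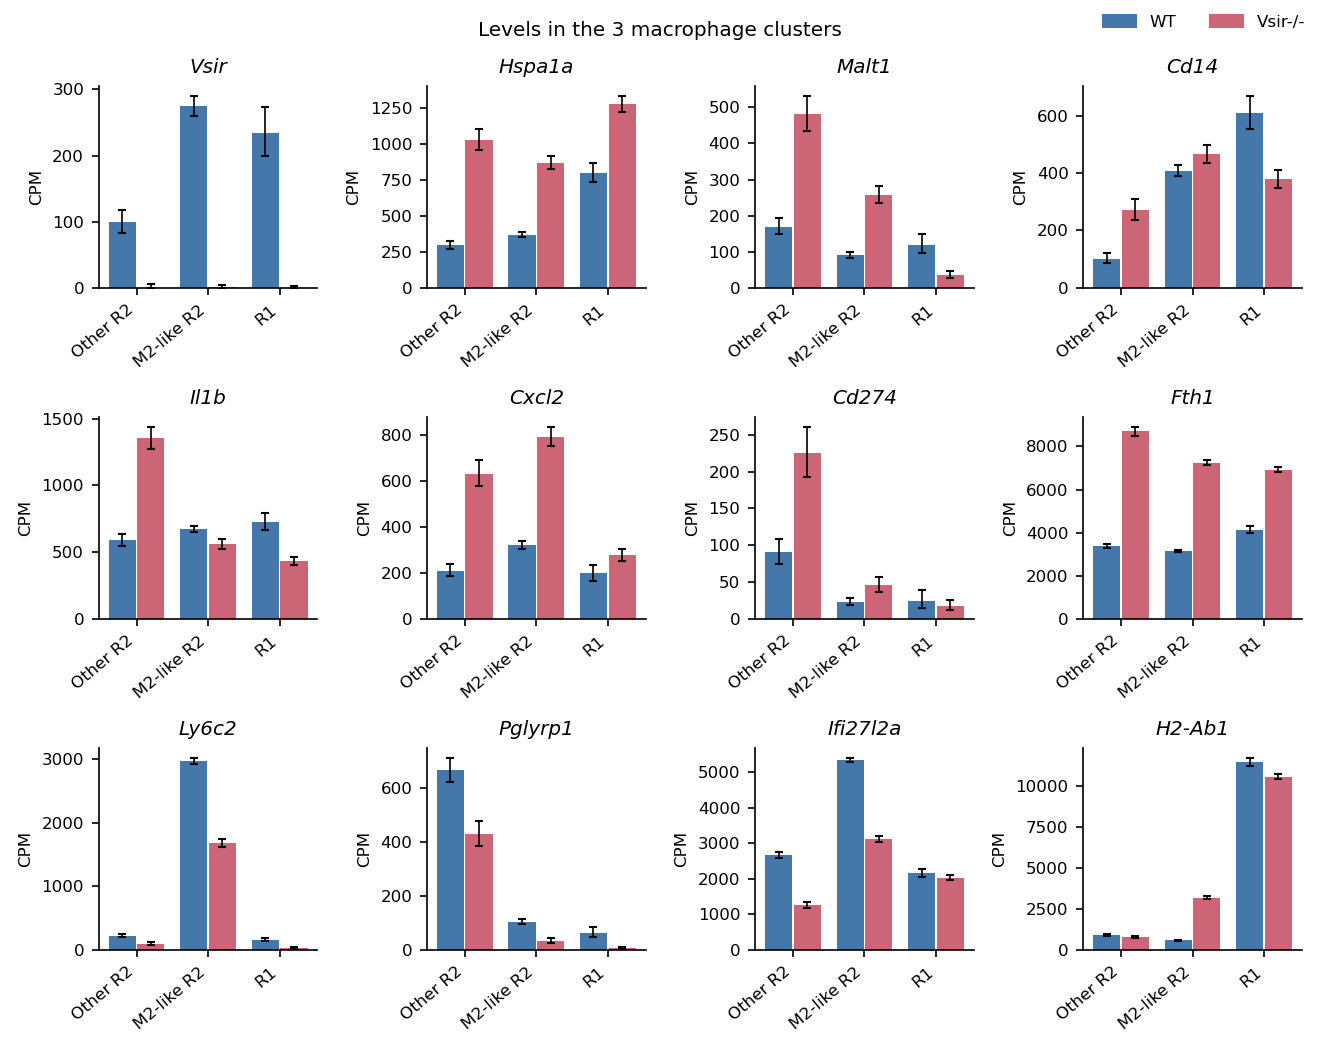
CPM (vertical axes) of 12 genes in the 3 macrophage clusters (horizontal axes), WT in blue and Vsir-/- in red, with 95% Poisson intervals that cover counting error only. Il1b was 588 and 1355 CPM in Other R2 and 728 and 431 CPM in R1, and H2-Ab1 was 566 and 3179 CPM in M2-like R2.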

How the data were processed

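Per the labels and the methods of the study, the authors prepared 10x Genomics 3′ libraries, counted UMIs with Cell Ranger 3.1.0 (as also named, with R 4.0.3 and Seurat 3.2.3, in the submitters' processing notes), removed cells with over 10% mitochondrial UMIs, merged both libraries with SCTransform, and clustered and named the cells. The deposited matrix held raw UMI counts per gene and cell of both libraries, and these counts were used as deposited. The percent of mitochondrial UMIs per cell was deposited by the authors in the table of cells, together with library and cluster. Cells of Other R2 were taken by cluster name. The fewest UMIs in a cell were 504 in WT and 501 in Vsir-/-, and no doublets were called or removed here. UMIs were summed over the cells of a library, divided by the sum of all genes and multiplied by 1000000 (CPM). Differences were log2 ratios with 0.5 UMIs added, for genes with at least 50 UMIs over both libraries. Intervals (95%) were exact Poisson for levels, Clopper-Pearson for shares and exact conditional binomial for ratios, and cover counting error only. A difference of 2-fold was the threshold, and no p-values were computed. The same steps on simulated counts for 4959 genes gave median log2 ratios of 1.05 and -0.93 where 1 and -1 were simulated. Of the genes simulated at these ratios, 58.0% and 44.0% were past 2-fold. The counts were Poisson draws from 1 profile, without spread between cells, other lineages' transcripts or annotation differences. They thus check the calculation and not these properties of the data.

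The cluster, the 34 gene lists and the rules for named genes were chosen with earlier results of these data known. Named were the 6 markers, members of the lists, the 12 largest and 12 smallest ratios among genes with at least 100 UMIs and 4 in each library, the 20 largest and 20 smallest of these at least 2-fold above neutrophils and B cells outside ribosomal and mitochondrial genes, the 20 genes most above and 10 most below R1 and M2-like R2, the 10 most abundant, and the 10 largest and 10 smallest differences from the ratio in M2-like R2. The limit against neutrophils and B cells was applied in the library where a gene was higher. Alternatives were a pseudocount of 1, other count filters, 2 other scalings, a mitochondrial limit of 5%, cells with at least 2 markers or without other lineages' genes, thinning to 1000 UMIs (seed 1), and, chosen after seeing the data, cells low in other lineages' transcripts, leaving out library-wide genes, and summing older and newer symbols. The deposited embedding coordinates were not used, and no sequences or coordinates are given. A few genes that these rules name are not reported here. Python 3.11.15 with numpy 2.4.6, scipy 1.17.1 and pandas 2.3.3 was used.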

Additional observations from a re-analysis of the deposited data

Results flagged for a closer look

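Malt1 was at least 2-fold higher in Vsir-/- than in WT cells in Other R2 (log2 ratio 1.51, interval 1.26 to 1.76) and at least 2-fold lower in R1 (log2 ratio -1.77, interval -2.29 to -1.27), and it drew attention because the 2 clusters moved in opposite directions. In R1 its levels were 119 and 35.0 CPM in WT and Vsir-/-. These are levels in all R1 cells, of which 44 of 116 in WT and 33 of 237 in Vsir-/- held other lineages' transcripts. The part of such cells in the Malt1 levels was not tested. The difference between the clusters was not tested, since each genotype had 1 library.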

How the results depend on the processing

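Of the share, count, median and marker results, 152 values under 14 alternatives stayed close to those given and 56 moved; of the ratios of single genes, 2198 stayed close, 488 moved and 23 changed sign. The cause of the moves was not tested. The share of the Vsir-/- library was 9.57% among cells with a Ptprc UMI. The counts of genes past 2-fold depended on the count filter, with 115 higher and 165 lower in Vsir-/- at 100 UMIs, 507 and 719 at 20, and 3252 and 2060 at 1. After thinning to 1000 UMIs per cell they were 42 and 39. Without library-wide genes 101 were higher, and in cells low in other lineages' transcripts 132 were lower, or 80 higher and 100 lower with library-wide genes left out as well. In cells with no UMI of T cell or B cell genes, Retnlg or Ncr1 (49 WT and 90 Vsir-/- cells) 89 were lower. In those cells the list medians were -0.23 for the 6 markers, -0.35 for patrolling monocytes, 0.73 for classical monocytes, 1.69 for MHC class II, 0.52 for cytokines, 0.27 for iron, 0.16 for the lysosome and 0.79 for immediate early genes. In cells low in other lineages' transcripts, with or without library-wide genes, they were -0.22, -0.42 and 0.037 for the first 3 lists, -0.14 for interferon γ, 1.01 for MHC class II, 0.48 for iron and 0.15 for the lysosome, and -1.17 (-0.94 without library-wide genes) for type I interferon. The classical monocyte median was -1.25 at 20 UMIs or 1 UMI, -1.07 at a mitochondrial share up to 5%, and -1.25 in cells with at least 2 markers, and that of interferon γ 0.94 at 20 UMIs and 0.98 at 1. Thinning gave 0.53 for classical monocytes, -0.077 for MHC class II, 0.55 for cytokines, 0.17 for the lysosome and 0.86 for immediate early genes, and marker levels of 378 CPM for Ace in Vsir-/-, 439 for Treml4 in WT, 450.0 for Adgre4 in WT, 500.0 and 472 for Cd300e, and 1800.0 and 1906 for Gngt2.

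Signs changed for single genes as follows. In cells without T, B, Retnlg or Ncr1 UMIs the log2 ratio was 1.55 for Camp, 0.49 for Ccr2, 1.01 for Chil3, 0.21 for Ciita, 1.21 for Ets1, 1.55 for H2-Ob, -0.20 for Il10, 2.28 for Lcn2, 1.15 for Ly6c2, 1.18 for Nkg7 and 0.45 for S1pr1. Of these, Camp, H2-Ob, Lcn2 and Nkg7 had 0 UMIs in WT and at most 7 in Vsir-/-, and Ccr2, Chil3, Ciita, Ly6c2, Ets1 and S1pr1 had 1 to 7 UMIs in WT. In cells low in other lineages' transcripts it was 3.42 for Camp, 0.20 for Cd72, 0.26 for Ciita, 0.57 for Ets1, -0.42 for Flt1, 0.37 for H2-Ob and 0.15 for Lcn2. The UMIs in WT and Vsir-/- were 0 and 6 for Camp, 7 and 10 for Cd72, 6 and 9 for Ciita, 3 and 5 for H2-Ob and 8 and 11 for Lcn2, too few to give these genes a direction, and ratios with 0 UMIs in WT are set by the 0.5 added. Thinning gave 0.018 for Ciita and 0.21 for Lcn2. For Fn1 it was -0.13 at a mitochondrial share up to 5% and -0.29 with at least 2 markers, and with older and newer symbols summed 0.0071 for Fam96a. No paired analysis was possible because the labels carry no replicate numbers and each genotype has 1 library. Depth limits what can be seen, since 3 counts were 2.34 CPM in WT and 3.88 CPM in Vsir-/-.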

Other observations

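Genes of glycolysis and of the response to low oxygen were short of 2-fold between the genotypes in Other R2 cells. Of 10 genes, 9 reached 50 UMIs, 0 was past 2-fold higher and 0 lower, with median log2 ratios of 0.34 in all cells and 0.15 in cells low in other lineages' transcripts, against -0.046 and -0.085 over all genes. Of all genes tested, 4.44% were past 2-fold higher and 6.45% lower. Gapdh had 871 CPM in WT and 872 CPM in Vsir-/-, Ldha, lactate dehydrogenase A, had 262 CPM in WT and 396 CPM in Vsir-/-, and Hif1a, the oxygen-regulated transcription factor, had 75.7 CPM in WT and 118 CPM in Vsir-/-. Genes of dividing cells were rare, with 4 and 6 UMIs of the proliferation marker Mki67 and 13 and 19 UMIs of topoisomerase Top2a, and none of 5 listed genes reached 50 UMIs.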
